A study of Homo sapiens with 24 samples.

Results

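The HOX cluster genes are the genes whose symbol is HOXA, HOXB, HOXC or HOXD followed only by a number. That rule took 39 of the 58735 Ensembl genes in the count table, of which 31297 had a count in at least 1 library. The HOX genes encode homeodomain transcription factors that tell cells of an embryo where they lie along the body axis and along the limb. They sit side by side in clusters, with low numbers at the end used first and nearest the head and high numbers at the end used later and nearer the tail, and Polycomb and Trithorax complexes hold their repressed and active states. In the gut, members with high numbers are used in the hindgut, and adult colon and colorectal cancer lines keep a HOX pattern of their own.

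The libraries are RNA-seq of HCT116, a human colorectal cancer cell line, made to ask what the loss of UHRF1, of DNMT1 or of both does to the cells. UHRF1 recognises newly copied DNA and brings in DNMT1, the enzyme that copies CG methylation to the new strand. There were 8 groups with 3 libraries each, and whole-number counts per gene were deposited for all 24 libraries. DNA methylation was not measured in these libraries.

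The WT groups were the parental line, which carries a doxycycline-inducible OsTIR1, the plant F-box protein that lets auxin mark a tagged protein for degradation. In the UHRF1-AID and DNMT1-AID groups the named protein carried an auxin-inducible degron tag, and in the UHRF1-AID/DNMT1-AID groups, here also called the double line, both proteins did. Each line was collected at day 0 and at day 4. Before day 4 collection, WT included, cells had doxycycline at 2 µg/mL with auxinole, an OsTIR1 blocker, at 20 µM and then doxycycline at 2 µg/mL with auxin at 500 µM. The doses apply to the day 4 groups. Because WT had the same agents, a difference from WT at day 4 is not a difference in agents, while a difference between days joins the agents, the time in culture and, in tagged lines, the degradation. Each tagged line stood for 3 clones in the study's methods, but the labels do not tie a library to a clone, so spread within a tagged group can include spread between clones.

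The lowest, median and highest library totals at day 0 were 18883942, 19678792 and 19778281 counts for WT. They were 18630957, 19228087 and 25073821 for UHRF1-AID, 20609617, 21137835 and 21952477 for DNMT1-AID, and 22740070, 23912638 and 23972076 for the double line. At day 4 they were 16025660, 16078864 and 16249481 for WT, 17776768, 18798051 and 19991383 for UHRF1-AID, 15824804, 16904999 and 16987046 for DNMT1-AID, and 15936193, 16015906 and 16645939 for the double line. The median depth of each line was lower at day 4 than at day 0, and UHRF1-AID day 0 had the widest range. At this depth a gene with no count in a group of 3 libraries can still have had up to 3 counts over the group, which was the floor used for lower bounds, and floors and intervals cover counting error only.

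The file headers place the alignments in 2 folders. Folder 1 held every day 0 library and the UHRF1-AID day 4 libraries, and folder 2 held the day 4 libraries of WT, DNMT1-AID and the double line, the only ones with ERCC spike-in counts, at 0.891% to 1.65% of counts. Comparisons of the double line or DNMT1-AID with WT at day 4, and with each other, therefore lie within a folder, as does UHRF1-AID day 4 against its day 0. UHRF1-AID against WT or DNMT1-AID at day 4, and the other day effects, cross the folders, so there the folder and the group cannot be told apart.

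Some libraries stood apart from their group. Spearman's rho across 12040 genes between exon length and a library's log2 difference from the other libraries of its day was 0.388, 0.372 and -0.349 in the WT day 0 libraries, in the order of replicates 1, 2 and 3, which holds wherever values of 3 libraries are listed. It was -0.369, -0.295 and 0.117 for DNMT1-AID day 0, 0.401, 0.207 and 0.349 for UHRF1-AID day 0, and 0.00951, -0.0693 and -0.0704 for the double line at day 0. The libraries labelled WT day 0 replicate 3 and DNMT1-AID day 0 replicate 3 thus each lay away from their own group, in opposite directions. At day 4 the values were -0.212, -0.0556 and 0.0944 for WT, 0.374, -0.0741 and 0.326 for UHRF1-AID, 0.0316, -0.00792 and -0.131 for DNMT1-AID, and -0.148, -0.178 and -0.152 for the double line. Among these, UHRF1-AID day 4 replicate 2 stood away from the rest of its group. Genes are not independent replicates, so these correlations only describe the libraries.

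DNMT1 itself had 3511, 3514 and 1366 counts in WT day 0 and 558, 616 and 1528 in DNMT1-AID day 0. UHRF1 had 1828, 1589 and 896 counts in WT day 0 and 997, 948 and 2224 in DNMT1-AID day 0. In both genes the libraries labelled replicate 3 of these groups lay away from their own group and toward the other. HOXB5 showed the same layout, with 82, 83 and 29 counts in WT and 35, 30 and 137 in DNMT1-AID, but not all HOX genes did. In a tally made after seeing the data, of 22 HOX genes with at least 10 counts in these 6 libraries, both libraries lay nearer the other group's replicates 1 and 2 in log2 CPM in 7, only that of WT in 6, only that of DNMT1-AID in 6 and neither in 3. Over 12804 genes both did in 52.6% and neither in 12.2%. HOXB9 was a case of WT only, with DNMT1-AID at 32.9, 50.7 and 29.5 CPM and WT at 58.9, 72.2 and 43.8. Whether these libraries carry the right label cannot be told from the files, so HOX calls that use them are also given without them, while group means and cluster sums hold all 3 libraries.

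The targeted genes come first among the measured genes. Mean DNMT1 levels at day 0, in CPM (counts relative to library totals that were adjusted by trimmed-mean factors; ± SD, n = 3), were 142 ± 57.3 for WT, 180 ± 9.99 for UHRF1-AID, 44.5 ± 25.3 for DNMT1-AID and 65.4 ± 21.7 for the double line. At day 4 they were 31.5 ± 12.7, 42.2 ± 18.9, 15.4 ± 1.94 and 12.6 ± 2.70 CPM in the same order, from 371, 403 and 747 counts in WT, 767, 508 and 1401 for UHRF1-AID, 281, 217 and 248 for DNMT1-AID, and 217, 226 and 155 for the double line. DNMT1 RNA was thus lower on average in the lines whose DNMT1 is tagged, before and after auxin. Mean UHRF1 levels at day 0 were 73.5 ± 20.7 CPM in WT, 169 ± 22.6 for UHRF1-AID, 68.8 ± 33.4 for DNMT1-AID and 148 ± 61.4 for the double line, and at day 4 they were 25.6 ± 8.53, 51.6 ± 25.3, 37.0 ± 3.48 and 45.7 ± 16.2. UHRF1 RNA was higher on average in the lines whose UHRF1 is tagged. The degron acts on the protein, so these RNA values do not show whether the proteins were degraded.

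Markers were checked against the cell type on the label. The 8 colon epithelium markers summed to 2457 to 4644 CPM in single libraries. Their most abundant gene was KRT8, a keratin of simple epithelia, at 2285 CPM on average, and VIL1, the microvillus protein villin, was under 0.1 CPM. The 5 fibroblast markers summed to 1.40 to 26.6 CPM, with group means at day 4 of 5.75 for WT, 12.9 for UHRF1-AID, 11.7 for DNMT1-AID and 25.8 for the double line. COL1A1, a collagen chain, was their most abundant gene at 7.45 CPM, while COL1A2, COL3A1 and DCN were under 0.1 CPM. The 4 leukocyte markers summed to 0 to 0.859 CPM, with PTPRC, CD3E, CD68 and LYZ each under 0.1 CPM on average. The 3 endothelium markers summed to 0 to 1.93 CPM, with VWF at 0.431 CPM and CDH5 under 0.1 CPM. The cells were thus rich in epithelial keratin RNA.

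The HOXA cluster lies on the minus strand at chr7:27092993-27200106 (hg38) and holds 11 HOX genes in 107114 bp. HOXB, with 10 genes, lies on the minus strand at chr17:48528526-48729178, over 200653 bp. HOXC, with 9 genes, lies on the plus strand at chr12:53938765-54056030, over 117266 bp, and HOXD, with 9 genes, on the plus strand at chr2:176092891-176190907, over 98017 bp. Of the 39 genes, 14 share no exon base with another gene, and 11 share more than 25% of their exon bases (HOXA4, HOXA6, HOXA7, HOXA9, HOXA10, HOXA11, HOXB6, HOXC5, HOXD1, HOXD3 and HOXD4). The strand setting of the counting is not stated, so reads of such genes and of antisense partners cannot be told apart and their values are uncertain.

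Levels between genes are compared as CPM per kb of exon, averaged over the 24 libraries. HOXB7 was the highest HOX gene at 34.0 CPM per kb, followed by HOXA9, a gene best known from leukaemia, at 20.8, HOXB8 at 14.1, HOXB9, which patterns thoracic segments, at 11.3, HOXB13, a hindgut and prostate regulator, at 6.70, and HOXA10, which patterns the uterus, at 6.59. HOXC9 led its cluster at 5.43 CPM per kb, and HOXD8 led HOXD at 4.43. HOXB7 itself ranged from 27.1 ± 0.88 CPM per kb in WT day 4 to 40.1 ± 3.0 in DNMT1-AID day 0 (SD, n = 3), so it was abundant in all groups. The middle of HOXB and the HOXA9 to HOXA10 stretch thus carried most of the HOX signal on this scale, while HOXD genes other than HOXD8 had few counts.

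HOX genes with at least 1 count numbered 36 for WT day 0, 33 for UHRF1-AID day 0, 33 for DNMT1-AID day 0 and 35 for the double line at day 0. At day 4 they numbered 35, 38, 36 and 37 in the same order of lines. Those with at least 10 counts in all 3 libraries numbered 22 to 24 in each group. HOXB1 had no count in any library. Summed over HOXA, the levels were 105 ± 1.29, 116 ± 10.3, 110 ± 12.1 and 111 ± 3.30 CPM at day 0 and 156 ± 4.57, 118 ± 9.37, 133 ± 7.08 and 112 ± 4.99 CPM at day 4, for WT, UHRF1-AID, DNMT1-AID and the double line. WT day 4 had the highest HOXA sum of the 8 groups. The HOXB sums were 209 ± 16.8, 181 ± 22.5, 187 ± 5.51 and 174 ± 34.6 CPM at day 0 and 133 ± 3.0, 130 ± 20.9, 150 ± 7.84 and 124 ± 16.2 CPM at day 4, lower on average at day 4 in each line. The HOXC sums lay between 18.9 ± 3.35 CPM in WT day 4 and 25.1 ± 3.70 in UHRF1-AID day 4. The HOXD sums were 9.76 ± 0.898, 7.68 ± 2.04, 8.26 ± 1.02 and 8.75 ± 2.09 CPM at day 0 and 17.3 ± 1.33, 18.5 ± 1.88, 13.7 ± 1.47 and 17.9 ± 0.977 CPM at day 4, higher on average at day 4 in each line, with HOXD8 as the main contributor.

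A gene was called where its adjusted p was under 0.05 and its absolute log2 fold change over 1. Fitted values are log2 fold changes with SE, and adjusted p values come from the quasi-likelihood test of edgeR, adjusted by Benjamini-Hochberg over all genes tested in a comparison. Of the 39 HOX genes, 28 passed the filter on low counts in at least 1 of the 12 comparisons, 23 passed in all 12 and 11 in none (HOXA2, HOXB1, HOXC5, HOXC12, HOXD1, HOXD3, HOXD4 and HOXD10 to HOXD13). In all, 14 were called in at least 1 comparison. A gene can pass the filter through the group where it is high, so counts over tested genes describe and do not support. The libraries are bulk RNA, so fewer cells using a gene and less RNA per cell cannot be told apart.

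The first comparison asks which HOX genes differed once both proteins had been targeted for 4 days, the double line against WT at day 4. HOXD9, HOXC10, HOXA5 and HOXB2 rose and HOXA13 and HOXA3 fell. That is 6 of 26 tested HOX genes, where 11.7% of all 14219 tested genes were called. The median log2 fold change was 0.00 over the HOX genes and 0.02 over all genes, also with HOXD9 at its bound. An unadjusted p under 0.05 by edgeR was found for 16 HOX genes and for 6669 of all 14219 genes tested. The calls therefore lay in both directions and in each cluster.

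HOXA13, which patterns the distal limb and the hindgut, had 116, 150 and 117 counts in WT day 4 (7.92 ± 1.0 CPM), 111, 59 and 84 for UHRF1-AID (4.06 ± 1.1), 97, 92 and 93 for DNMT1-AID (5.84 ± 0.28) and 52, 48 and 38 for the double line (2.89 ± 0.50). In CPM, the double-line libraries lay below every WT and DNMT1-AID library and overlapped those of UHRF1-AID. Against WT it fell by 1.45 on the log2 scale (SE 0.22, adjusted p 2.76e-05 by edgeR). HOXA3, which patterns the neck region and the thymus, had 60, 54 and 88 counts in WT day 4 and 28, 29 and 26 in the double line. The groups did not overlap, and it fell by 1.26 (SE 0.28, adjusted p 0.00129 by edgeR). Both calls held without any 1 library. HOXA3 was also lower in the double line at day 0 without the library labelled WT day 0 replicate 3 (-1.39, SE 0.26, adjusted p 0.00161 by edgeR). With all libraries in, it was not called at day 0. HOXA3 was not called in the double line's day effect, nor where that effect was tested against that of WT.

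HOXA5, which patterns the lung and the neck to thorax boundary, had 7, 46 and 26 counts in WT day 4, 125, 96 and 155 for UHRF1-AID, 35, 35 and 48 for DNMT1-AID, and 137, 139 and 94 for the double line. The UHRF1-AID and the double line libraries were all above the WT and DNMT1-AID libraries, and WT spread widely. HOXA5 rose by 2.26 in the double line against WT (SE 0.50, adjusted p 0.0119 by edgeR), and by 2.90 without WT day 4 replicate 2. The neighbouring abundant genes HOXA9 and HOXA10 had lower levels that passed on p but not on size: HOXA9 had 1340, 1438 and 1435 counts in WT day 4 against 796, 874 and 879 (-0.70, SE 0.10, adjusted p 7.6e-06 by edgeR), and HOXA10 544, 550 and 591 against 401, 406 and 438 (-0.42, SE 0.11, adjusted p 0.00634). Both are among the genes that share over 25% of their exon bases.

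In HOXB, HOXB2, a hindbrain and facial nerve gene, had 13, 19 and 21 counts in WT day 4 and 41, 35 and 34 in the double line, with no overlap. It rose by 1.07 (SE 0.34, adjusted p 0.0165 by edgeR). That call was lost without WT day 4 replicate 1 (adjusted p 0.0575), without double-line day 4 replicate 1 (0.0688), by DESeq2 (0.0610) and in a fit over all 24 libraries (0.0504). Under the size threshold, HOXB9 had 317, 369 and 336 counts in WT against 200, 224 and 184 (-0.73, SE 0.14, adjusted p 0.000437 by edgeR), and HOXB4, a gene of blood stem cells, had 151, 164 and 162 against 89, 100 and 87 (-0.77, SE 0.18, adjusted p 0.00193). HOXB8 was at -0.65 (adjusted p 0.0324 by edgeR) and HOXB3 at 0.96 (0.0384), where its counts of 23, 26 and 34 in WT and 82, 48 and 29 in the double line overlapped. HOXB3 was called without WT day 4 replicate 3 (1.11) or double-line day 4 replicate 3 (1.26). In the main fit, on the 6 libraries of these groups, HOXB2 alone passed both thresholds in HOXB.

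In HOXC, HOXC10, a gene of the lumbar cord and hindlimb, had 12, 8 and 12 counts in WT day 4 (0.665 ± 0.16 CPM), 42, 40 and 84 for UHRF1-AID (2.63 ± 1.0), 17, 15 and 5 for DNMT1-AID (0.752 ± 0.37) and 61, 67 and 65 for the double line (4.04 ± 0.26). WT and DNMT1-AID were low and overlapped, and both groups with tagged UHRF1 were high. HOXC10 rose by 2.6 in the double line against WT (SE 0.32, adjusted p 2.28e-06 by edgeR), with any 1 library left out as well. The other tested genes of HOXC were not called here.

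**Figure D1:**
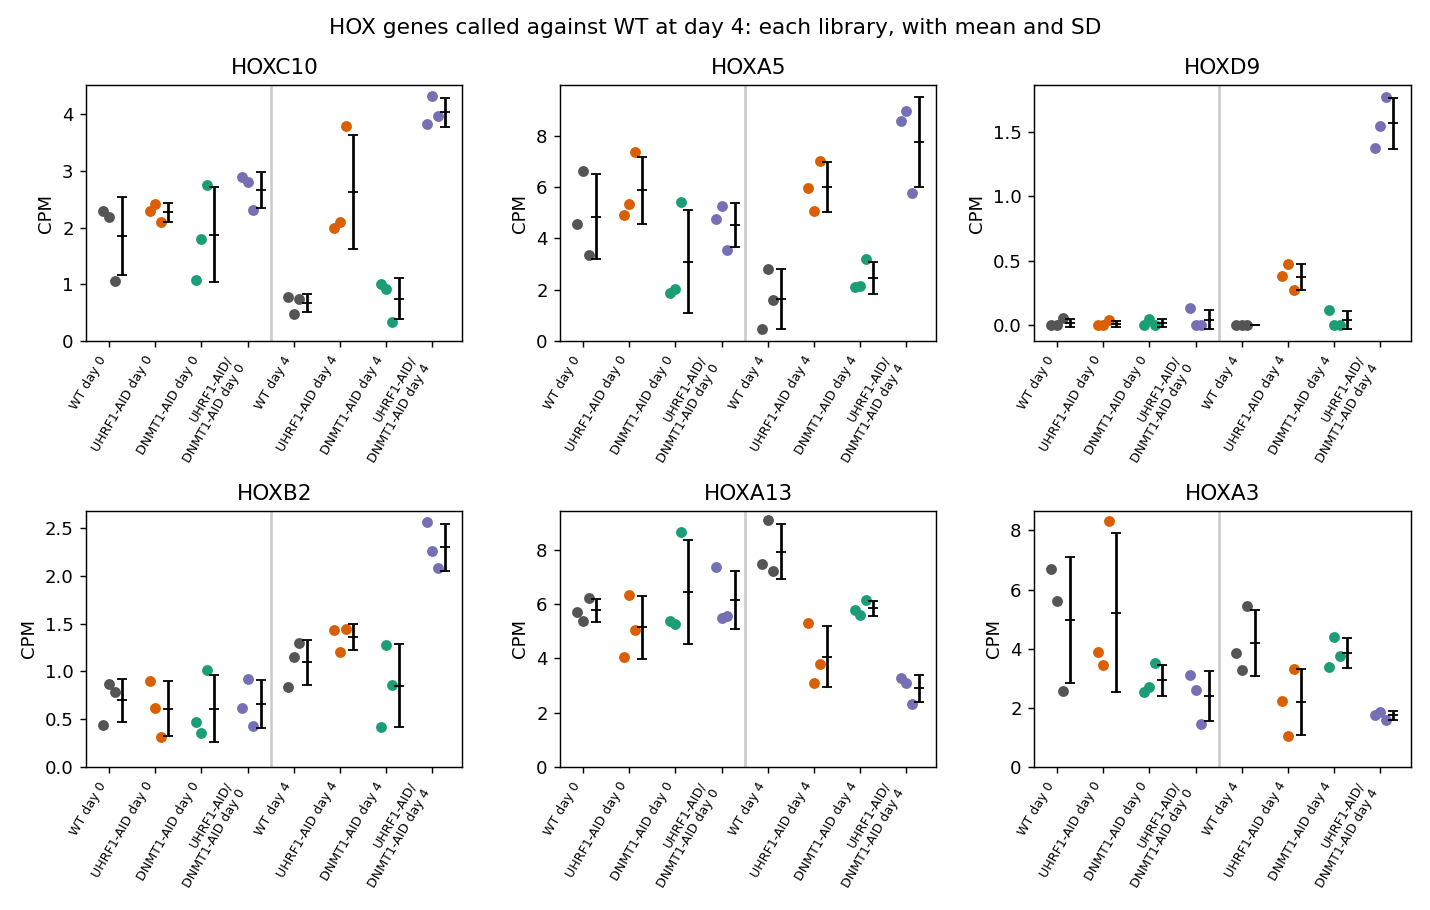
Level in CPM of the 6 HOX genes called in the double line against WT at day 4, with a point for each library in all 8 groups and the mean ± SD (n = 3). HOXC10, HOXA5, HOXD9 and HOXB2 are highest in the double line at day 4, and HOXA13 and HOXA3 are lowest there.

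In HOXD, HOXD9, which patterns the limb and lower spine with its neighbours, had no count in any WT day 4 library, 8, 9 and 6 for UHRF1-AID, 2, 0 and 0 for DNMT1-AID, and 22, 24 and 29 for the double line. At day 0 no group had more than 3 counts of it over its 3 libraries. HOXD9 was at least 25.2-fold higher in the double line than in WT at day 4, against a floor of 3 counts over the WT group, and was called with any 1 library left out (adjusted p 3.59e-06 by edgeR). In UHRF1-AID it was at least 5.95-fold higher than in WT but did not pass the filter on low counts.

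HOXD13, the digit gene at the end of the cluster, had 1, 0 and 0 counts in WT day 4, 3, 1 and 7 for UHRF1-AID, 2, 3 and 2 for DNMT1-AID, and 21, 6 and 21 for the double line. The double line was highest, with a ratio to WT of 48.5 (95% counting interval 8.29 to 1953), against 8.54 (1.24 to 368) for UHRF1-AID and 6.99 (0.898 to 315) for DNMT1-AID. HOXD1, at the other end of the cluster, had 2, 0 and 0 counts in WT day 4 and 14, 6 and 10 in the double line, a ratio of 15.1 (3.84 to 131). In UHRF1-AID the ratio for HOXD1 was 1.55 (0.223 to 17.2), an interval that spans 1. HOXD11 was at a ratio to WT of 6.31 (2.18 to 24.9) in the double line and 2.72 (0.854 to 11.3) in UHRF1-AID.

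HOXD10, a gene of lumbar motor neurons, had no count in any day 0 library nor in WT or DNMT1-AID at day 4, but 1, 6 and 11 in UHRF1-AID day 4 and 2, 1 and 9 in the double line at day 4. Against WT it was at least 4.66-fold higher in UHRF1-AID, and in the double line at least 4.04-fold. HOXC12, the neighbour of the hair gene HOXC13, had no count in WT day 4, 9, 10 and 4 for UHRF1-AID, 1, 2 and 0 for DNMT1-AID, and 3, 5 and 8 for the double line, so it was at least 5.95-fold higher than WT in UHRF1-AID, and in the double line at least 5.38-fold. HOXD12 was at a ratio of 3.03 (0.756 to 17.4) in the double line and HOXD4 at 4.66 (0.565 to 214) in UHRF1-AID, both with intervals that span 1. Apart from HOXD9, these genes did not pass the filter. With no filter, the edgeR test called 11 HOX genes in the double line against WT (9.74% of 26020 genes), adding HOXC12 (adjusted p 0.00858), HOXD1 (0.00198), HOXD10 (0.0326), HOXD11 (0.0320) and HOXD13 (1.61e-06). DESeq2 called 8 (8.09% of genes), with HOXC12 (0.0274), HOXD1 (0.0220) and HOXD13 (0.000908) among them but not HOXD10 (0.0889) or HOXD11 (0.105).

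The 9 HOX genes that averaged no more than 3 counts in WT day 0 were HOXB1, HOXC12, HOXD1, HOXD4 and HOXD9 to HOXD13. Their summed counts at day 0 were 3, 4 and 3 for WT, 1, 2 and 2 for UHRF1-AID, 2, 1 and 2 for DNMT1-AID, and 7, 9 and 2 for the double line. At day 4 they were 4, 7 and 0 for WT, 33, 36 and 34 for UHRF1-AID, 11, 6 and 7 for DNMT1-AID, and 76, 58 and 84 for the double line. The order at day 4 was the double line, UHRF1-AID, then DNMT1-AID and WT, and DNMT1-AID and WT overlapped. In CPM the day 4 sums were 0.227 for WT, 1.67 ± 0.195 for UHRF1-AID, 0.494 ± 0.147 for DNMT1-AID and 4.55 ± 0.724 for the double line, so the levels stayed low beside the 17.9 CPM of the whole HOXD cluster there. HOXD1 and HOXD4 share over 25% of their exon bases with other genes, and HOXD10 and HOXD11 share exon bases with each other, so those values are uncertain.

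The promoters of 4 HOXD genes and of HOXA13 are shown as examples of genes that came up from few or no counts, led their cluster or fell, and because CG is the site that DNMT1 methylates. Each is 250 bases before to 50 after the gene's start in RefSeq (GRCh38.p14), on the gene's strand and 5′ to 3′, with every CG in capitals. CG reads the same on both strands. HOXD13 is at chr2:176092471-176092770 (plus strand, 24 CG), HOXD10 at chr2:176116528-176116827 (plus, 23), HOXD8 at chr2:176129455-176129754 (plus, 34), HOXD1 at chr2:176188418-176188717 (plus, 36) and HOXA13 at chr7:27200042-27200341 (minus, 44).
HOXD13: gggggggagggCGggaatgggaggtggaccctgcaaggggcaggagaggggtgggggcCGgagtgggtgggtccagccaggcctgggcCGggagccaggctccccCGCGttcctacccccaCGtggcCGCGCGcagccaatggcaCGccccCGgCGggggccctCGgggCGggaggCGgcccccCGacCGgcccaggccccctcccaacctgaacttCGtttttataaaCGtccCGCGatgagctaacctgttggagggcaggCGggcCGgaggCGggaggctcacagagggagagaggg
HOXD10: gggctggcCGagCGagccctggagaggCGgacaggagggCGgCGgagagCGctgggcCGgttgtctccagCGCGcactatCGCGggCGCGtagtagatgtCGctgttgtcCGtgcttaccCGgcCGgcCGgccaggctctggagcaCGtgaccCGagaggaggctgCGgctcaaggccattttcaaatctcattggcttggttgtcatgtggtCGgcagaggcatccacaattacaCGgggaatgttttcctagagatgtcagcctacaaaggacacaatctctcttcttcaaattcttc
HOXD8: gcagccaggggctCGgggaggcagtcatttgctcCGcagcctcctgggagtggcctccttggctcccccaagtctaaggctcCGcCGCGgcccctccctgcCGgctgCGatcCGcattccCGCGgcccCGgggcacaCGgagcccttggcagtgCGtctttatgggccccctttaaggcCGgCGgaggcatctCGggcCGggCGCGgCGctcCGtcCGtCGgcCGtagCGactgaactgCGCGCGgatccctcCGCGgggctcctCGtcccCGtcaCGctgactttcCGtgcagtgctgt
HOXD1: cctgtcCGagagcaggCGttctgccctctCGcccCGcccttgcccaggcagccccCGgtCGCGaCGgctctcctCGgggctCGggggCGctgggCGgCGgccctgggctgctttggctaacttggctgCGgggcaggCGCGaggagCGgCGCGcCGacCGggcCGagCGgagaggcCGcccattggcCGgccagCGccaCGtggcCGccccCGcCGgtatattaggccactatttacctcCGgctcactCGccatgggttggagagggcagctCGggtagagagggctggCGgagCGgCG
HOXA13: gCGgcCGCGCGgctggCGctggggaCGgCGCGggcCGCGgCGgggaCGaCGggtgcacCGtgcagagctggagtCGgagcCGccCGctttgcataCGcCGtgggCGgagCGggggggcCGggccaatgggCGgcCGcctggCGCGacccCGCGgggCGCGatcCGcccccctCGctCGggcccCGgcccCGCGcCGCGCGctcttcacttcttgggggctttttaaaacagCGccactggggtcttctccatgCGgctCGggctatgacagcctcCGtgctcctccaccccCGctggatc
Of 35116 such windows in the table, 33.9% held at least as many CG as that of HOXD13, 35.8% as that of HOXD10, 15.6% as that of HOXD8, 12.7% as that of HOXD1 and 4.19% as that of HOXA13. A CG was present in 96.0% of all windows, with a median of 14. The table held 27 windows for 20 of the 39 HOX genes, with a median of 22 CG and a range of 0 to 44. Each promoter shown lies above that median. Among low genes not shown, HOXD4 had 4 CG, HOXB1 11, HOXD12 19 and HOXD11 27. The windows of HOXA3, which also fell, had 0 to 29. Genes with no entry include HOXA5, HOXB2 to HOXB9, HOXB13, HOXC6, HOXC8 to HOXC13 and HOXD9. These letters describe the windows only.

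UHRF1-AID against WT at day 4 asks the same of UHRF1 alone. HOXA5 and HOXC10 rose and no HOX gene fell, 2 of 25 tested, where 6.99% of 13958 tested genes were called. The median log2 fold change was 0.12 over HOX genes and 0.03 over all. An unadjusted p under 0.05 by edgeR was found for 7 HOX genes and for 4608 of all 13958 genes tested. HOXC10 rose by 2.02 (SE 0.39, adjusted p 0.00771 by edgeR), in each fit with 1 library left out too. HOXA5 rose by 1.92 (SE 0.48, adjusted p 0.0273 by edgeR), a call lost without WT day 4 replicate 3 (adjusted p 0.0573), UHRF1-AID day 4 replicate 1 (0.0710) or replicate 3 (0.0952), and 2.56 without WT day 4 replicate 2. HOXA13 (-0.93, SE 0.25, adjusted p 0.0304), HOXA9 (-0.54, 0.12, 0.0125) and HOXA10 (-0.43, 0.13, 0.0422) were under the size threshold, and HOXA13 was called without UHRF1-AID day 4 replicate 1 (-1.18, adjusted p 0.00947). With no filter 5 HOX genes were called (6.44% of 25340 genes), adding HOXC12 (adjusted p 0.00420), HOXD10 (0.0161) and HOXD9 (0.00430). DESeq2 called 4 (4.98% of genes), adding HOXC12 (0.0233) and HOXD9 (0.0221).

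DNMT1-AID against WT at day 4 asks it of DNMT1 alone. No HOX gene of 25 tested was called by edgeR and none by DESeq2, where 2.57% of 13582 tested genes were called. Those were 311 genes higher and 38 lower, against 769 and 53 without WT day 4 replicate 3 and 208 and 14 without WT day 4 replicate 2, with no HOX gene called in these fits either. The median was -0.01 over HOX genes and 0.00 over all. An unadjusted p under 0.05 by edgeR was found for 6 HOX genes and for 3280 of all 13582 genes tested. HOXB7 had the strongest evidence, with 664, 660 and 676 counts in WT day 4 and 906, 831 and 951 in DNMT1-AID. Those libraries did not overlap, and the difference was 0.43 (SE 0.11, adjusted p 0.0285 by edgeR), under the size threshold.

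**Figure D2:**
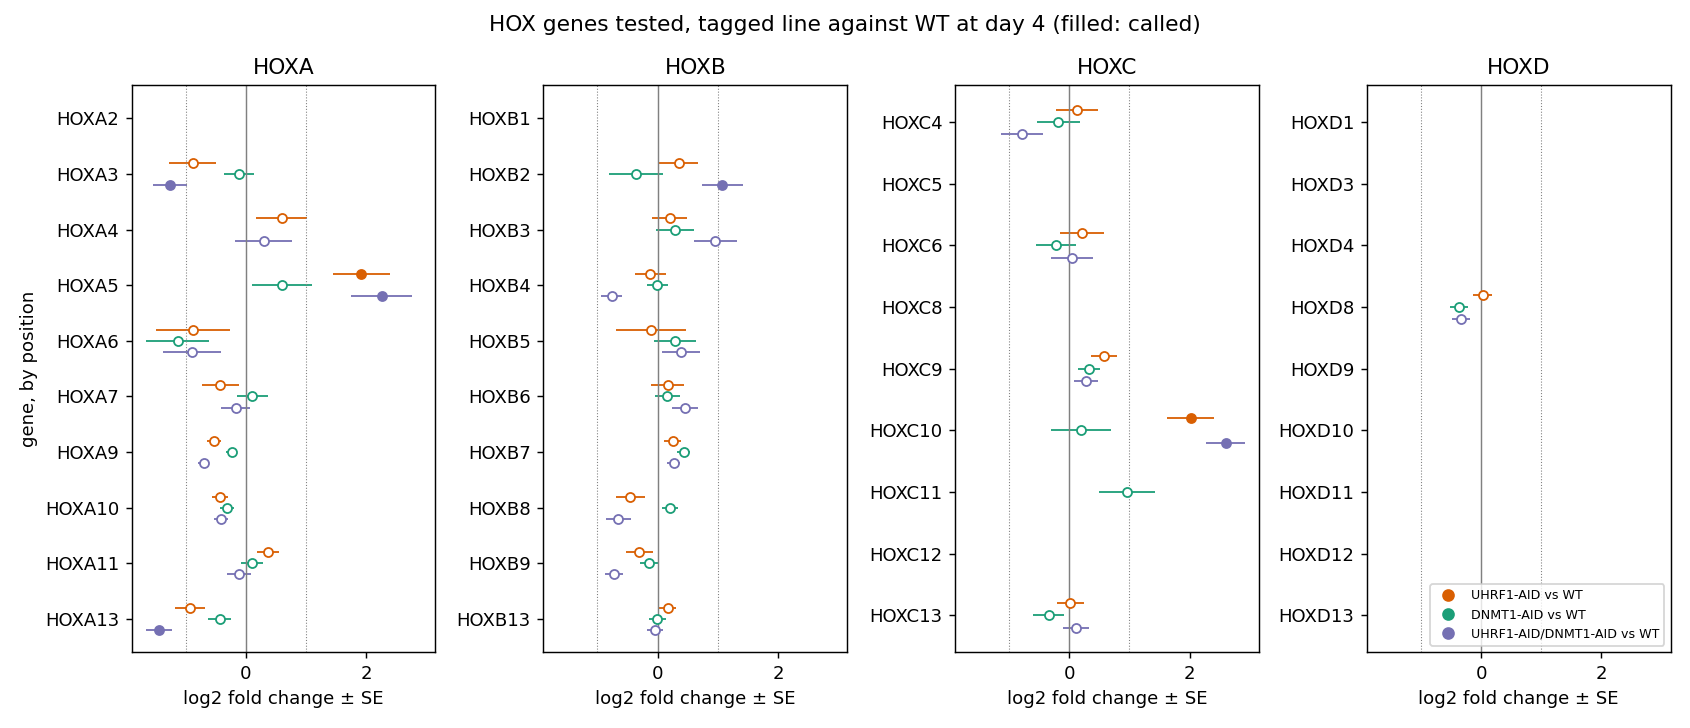
Log2 fold change ± SE (horizontal axis) against WT at day 4 of the tested HOX genes plotted, by cluster and position, for UHRF1-AID, DNMT1-AID and the double line. Filled points were called, dotted lines mark a log2 fold change of 1 up or down, and genes with a group at or under 3 counts have no point. HOXA5 and HOXC10 are filled and right of the dotted lines in both groups with tagged UHRF1, and HOXA13 and HOXA3 are filled and left of them in the double line. HOXD9 was called there but has no point.

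The tagged lines were also compared with each other, which asks what tagging UHRF1 adds to tagging DNMT1. In the double line against DNMT1-AID at day 4, 4 HOX genes rose and 2 fell of 25 tested, where 6.84% of 14246 tested genes were called, and the medians were -0.04 and -0.01. They were HOXD9, HOXC10, HOXA5 and HOXB2 upward and HOXA3 and HOXA13 downward, the genes also called against WT, and this comparison shares the double-line libraries with that one. HOXC10 was at 2.39 (SE 0.35, adjusted p 9.45e-05 by edgeR), HOXA5 at 1.65 (0.24, 0.000109), HOXA3 at -1.15 (0.27, 0.00508) and HOXB2 at 1.43 (0.40, 0.0164). HOXD9 was at a ratio of 37.9 (10.1 to 319; adjusted p 8.53e-05 by edgeR). HOXA13 fell by 1.02 (SE 0.22, adjusted p 0.00324 by edgeR), just past the size threshold, at -0.99 without DNMT1-AID day 4 replicate 3 and -0.88 without double-line day 4 replicate 3. HOXB2 was lost without DNMT1-AID day 4 replicate 1 (adjusted p 0.0625), double-line day 4 replicate 1 (0.0591) or replicate 2 (0.0528), and HOXA3 in the fit over all 24 libraries (0.0745). HOXD13 and HOXD1 did not pass the filter in the main fit, but were called as higher with no filter (adjusted p 0.00208 and 0.0105 by edgeR, 5.47% of genes) and by DESeq2 (0.0158 and 0.0400, 4.64%), and in 4 and 2 of 6 fits without 1 library.

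UHRF1-AID against DNMT1-AID at day 4 called HOXA5 and HOXC10, both higher in UHRF1-AID, of 26 tested, where 5.31% of 14080 tested genes were called. The medians were 0.06 over HOX genes and 0.01 over all genes. An unadjusted p under 0.05 by edgeR was found for 5 HOX genes and for 4373 of all 14080 genes tested. HOXA5 was at 1.29 (SE 0.26, adjusted p 0.0125 by edgeR) and HOXC10 at 1.79 (SE 0.45, adjusted p 0.0278). Neither call held without UHRF1-AID day 4 replicate 3 (adjusted p 0.0550 for HOXA5 and 0.116 for HOXC10), DNMT1-AID day 4 replicate 1 (0.0570 and 0.0600) or replicate 2 (0.0618 and 0.0765), and that of HOXC10 was also lost without DNMT1-AID day 4 replicate 3 (0.0926). The count of calls then fell to 0 or 1, with 2.75% to 3.8% of all genes called. HOXD10 did not pass the filter. With no filter it was called as higher in UHRF1-AID (adjusted p 0.0219 by edgeR, 4.17% of 25659 genes called), but not by DESeq2. HOXD9 was at a ratio of 8.95 (2.21 to 78.3) and HOXC12 of 5.97 (1.80 to 31.0). Neither was called with no filter (adjusted p 0.0743 and 0.129 by edgeR).

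The day 0 comparisons ask whether the tagged lines differed from WT before auxin. UHRF1-AID against WT called no HOX gene of 24 tested by edgeR or DESeq2, where 0% of 13894 tested genes were called and the medians were 0.08 and 0.01. No HOX gene had an unadjusted p under 0.05 by edgeR there, while 512 of all genes did. DNMT1-AID against WT called none of 25 by either tool, where 0.00723% of 13833 were called and the medians were -0.20 and -0.01. An unadjusted p under 0.05 by edgeR was found there for 2 HOX genes and 711 of all genes. Neither count of HOX calls moved without the libraries labelled WT day 0 replicate 3 or DNMT1-AID day 0 replicate 3. The double line against WT called HOXB9 of 26 tested, where 1.31% of 14023 were called and the medians were 0.04 and 0.01.

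HOXB9 at day 0 had 1206, 1413 and 782 counts in WT, 1095, 558 and 1098 for UHRF1-AID, 637, 1011 and 611 for DNMT1-AID, and 530, 756 and 490 for the double line. WT and the double line did not overlap in CPM (58.3 ± 14 and 25.3 ± 5.7), and the other lines lay between them and overlapped both. In the double line HOXB9 was lower by a log2 fold change of -1.21 (SE 0.23, adjusted p 0.0393 by edgeR). The call was lost without WT day 0 replicate 1 (adjusted p 0.124), replicate 2 (0.1), or double-line day 0 replicate 1 (0.118), replicate 2 (0.0873) or replicate 3 (0.171). Without the library labelled WT day 0 replicate 3 it was -1.40 (adjusted p 0.00822), and HOXA3 was called too, for a count of 2 (2.53% of all genes). HOXB9 thus already differed between the double line and WT before auxin, in a call that rests on most of the libraries being present.

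The day effects, day 4 against day 0 within a line, join the agents, the culture time and the degradation. In WT, where no protein was tagged, 2 HOX genes rose, HOXC4 among them, and HOXC10 and HOXB9 fell, of 25 tested, where 11.9% of 13601 tested genes were called. The medians were -0.27 over HOX genes and -0.03 over all genes. An unadjusted p under 0.05 by edgeR was found for 14 HOX genes and for 6285 of all 13601 genes tested. HOXB9 went from 58.3 ± 14 to 21.2 ± 1.1 CPM and fell by 1.48 (SE 0.18, adjusted p 0.000602 by edgeR). The days did not overlap. This call and those of HOXC10 and HOXC4 were kept without the library labelled WT day 0 replicate 3, at -1.66 for HOXB9, -1.77 for HOXC10 and 1.21 for HOXC4, and HOXB3 was added.

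HOXC10 had 47, 43 and 19 counts in WT day 0 against 12, 8 and 12 at day 4, and fell by 1.5 (SE 0.40, adjusted p 0.0180 by edgeR). That call was lost without WT day 0 replicate 1 (adjusted p 0.0720), day 0 replicate 2 (0.0618) or day 4 replicate 2 (0.0782). HOXC4, which is used at the neck to thorax level and shares 17.8% of its exon bases, had 26, 10 and 14 counts in WT day 0 against 30, 44 and 28, and rose by 1.27 (SE 0.37, adjusted p 0.0275 by edgeR). It was lost without WT day 0 replicate 2 (0.0907, leaving 2 calls, with 9.45% of all genes called), day 4 replicate 1 (0.0574) or day 4 replicate 2 (0.112). HOXA5, with 93, 130 and 60 against 7, 46 and 26 counts, was at -1.59 (SE 0.55, adjusted p 0.0582) and not called, but was without WT day 4 replicate 2 (-2.24, adjusted p 0.0332), by DESeq2 and in the fit over all 24 libraries. WT day 4 was thus the low point of HOXC10 and HOXA5 among the 8 groups, which bears on each comparison that uses it.

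In UHRF1-AID, 4 HOX genes rose and 4 fell of 26 tested, where 21.9% of 14391 tested genes were called and the medians were 0.03 and 0.02. HOXC4 had 15, 17 and 13 counts at day 0 and 41, 29 and 71 at day 4 (1.70, SE 0.39, adjusted p 0.00569 by edgeR). HOXD8 had 106, 163 and 222 against 334, 353 and 346 (1.19, SE 0.21, adjusted p 0.0014 by edgeR). Over the 8 groups, mean HOXD8 was lowest in UHRF1-AID day 0 (2.85 CPM per kb) and highest in WT day 4 (6.38). HOXB9 was at -1.30 (SE 0.28, adjusted p 0.00454 by edgeR), HOXB3, a hindbrain gene, at -1.15 (0.23, 0.00256) and HOXA7, most of whose exon bases lie opposite an antisense gene, at -1.11 (0.27, 0.00809). No pair of days overlapped for these genes. Without UHRF1-AID day 0 replicate 1 HOXD8 came to 1.00 and missed the size threshold, and without day 4 replicate 2 HOXA7 came to -0.92.

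HOXB2, with 18, 12 and 8 counts in UHRF1-AID day 0 and 30, 23 and 32 at day 4, rose by 1.21 (SE 0.41, adjusted p 0.0334 by edgeR). It was lost without day 0 replicate 2 (adjusted p 0.0858), day 0 replicate 3 (0.131), day 4 replicate 1 (0.0702) or day 4 replicate 3 (0.0847), and by DESeq2 (0.0694). HOXA3, with 78, 67 and 210 against 47, 20 and 73 counts, fell by 1.20 (SE 0.45, adjusted p 0.0497 by edgeR), lost without day 0 replicate 1 (0.0544), day 0 replicate 3 (0.230), day 4 replicate 1 (0.110) or day 4 replicate 2 (0.0929). With the replicate number as a block, 10 HOX genes were called in place of 8, with HOXA6 and HOXB5 added (22.3% of all genes). With no filter 15 were called (15.5% of 26684 genes). HOXD9 was at a ratio of 24 (3.89 to 987) to day 0, HOXC12 at least 7.99-fold, HOXD10 at least 6.25-fold and HOXD11 at least 4.86-fold higher, a comparison within 1 alignment folder. HOXD12 was at a ratio of 2.08 (0.299 to 23.0), an interval that spans 1.

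In DNMT1-AID, 3 HOX genes rose and none fell of 24 tested, where 15.3% of 13850 tested genes were called and the medians were -0.14 and -0.01. HOXC4 had 13, 11 and 14 counts at day 0 and 46, 19 and 25 at day 4 (1.53, SE 0.42, adjusted p 0.0144 by edgeR), lost without day 4 replicate 1 (0.0935), which left 1 call, with 13.3% of all genes called. HOXC11, a hindlimb gene, had 6, 9 and 2 counts against 12, 15 and 14 (1.55, SE 0.54, adjusted p 0.0424 by edgeR). That call was lost without day 0 replicate 1 (0.0891), day 4 replicate 1 (0.0831), replicate 2 (0.112) or replicate 3 (0.116), with no filter (0.0678) and by DESeq2 (0.123). Without the library labelled DNMT1-AID day 0 replicate 3, HOXC11 was lost (0.102) while HOXC4 was at 1.58 and HOXB9 was called too. In the main fit of this line HOXB9 was at -0.99 (SE 0.22, adjusted p 0.00606), just short of the size threshold, and it was called in 4 of 6 fits without 1 library. HOXC4 and HOXB9 thus lay in the same direction as in WT.

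In the double line, 4 HOX genes rose and 2 fell of 27 tested, where 26.6% of 14698 tested genes were called and the medians were -0.13 and 0.02. HOXB2 had 14, 22 and 10 counts at day 0 and 41, 35 and 34 at day 4 (1.79, SE 0.36, adjusted p 0.000285 by edgeR). HOXD9 was at a ratio of 36.6 (12.1 to 181; adjusted p 4.23e-06 by edgeR). HOXB4, with 265, 394 and 234 against 89, 100 and 87 counts, fell by 1.15 (SE 0.18, adjusted p 2.71e-05), -0.92 without day 0 replicate 2. HOXA13, with 168, 131 and 130 against 52, 48 and 38, fell by 1.09 (SE 0.22, adjusted p 0.000207), -0.95 without day 0 replicate 1 or without day 4 replicate 3.

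HOXC11 in the same line had 8, 6 and 11 counts at day 0 and 9, 15 and 20 at day 4 and rose by 1.34 (SE 0.48, adjusted p 0.0200 by edgeR), lost without day 0 replicate 1 (adjusted p 0.0523), day 0 replicate 2 (0.0849), day 4 replicate 2 (0.0631) or day 4 replicate 3 (0.114), and by DESeq2 (0.0877). HOXB9 was at -1.0 (SE 0.15, adjusted p 3.65e-05) and missed the size threshold by a small margin, called in 4 of 6 fits without 1 library. HOXD1 was at least 14.6-fold, HOXC12 at least 7.81-fold and HOXD10 at least 5.86-fold higher than at day 0, and HOXD13 was at a ratio of 35.1 (9.21 to 298) and HOXD11 of 7.32 (2.75 to 24.5). HOXD12 was at a ratio of 1.88 (0.624 to 5.95), an interval that spans 1. HAGLR, which shares 158 exon bases with HOXD1 on the opposite strand, rose in the same comparison, from 6, 21 and 8 counts to 52, 38 and 48 (2.51, SE 0.40, adjusted p 2.45e-05 by edgeR), and without strand their shared reads cannot be told apart. In WT day 4 HAGLR had 41, 37 and 29 counts where HOXD1 had 2, 0 and 0. Without double-line day 0 replicate 3 there were 10 HOX calls (27.3% of all genes), with no filter 13 (18.8%) and by DESeq2 11 (16.7%).

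**Figure D3:**
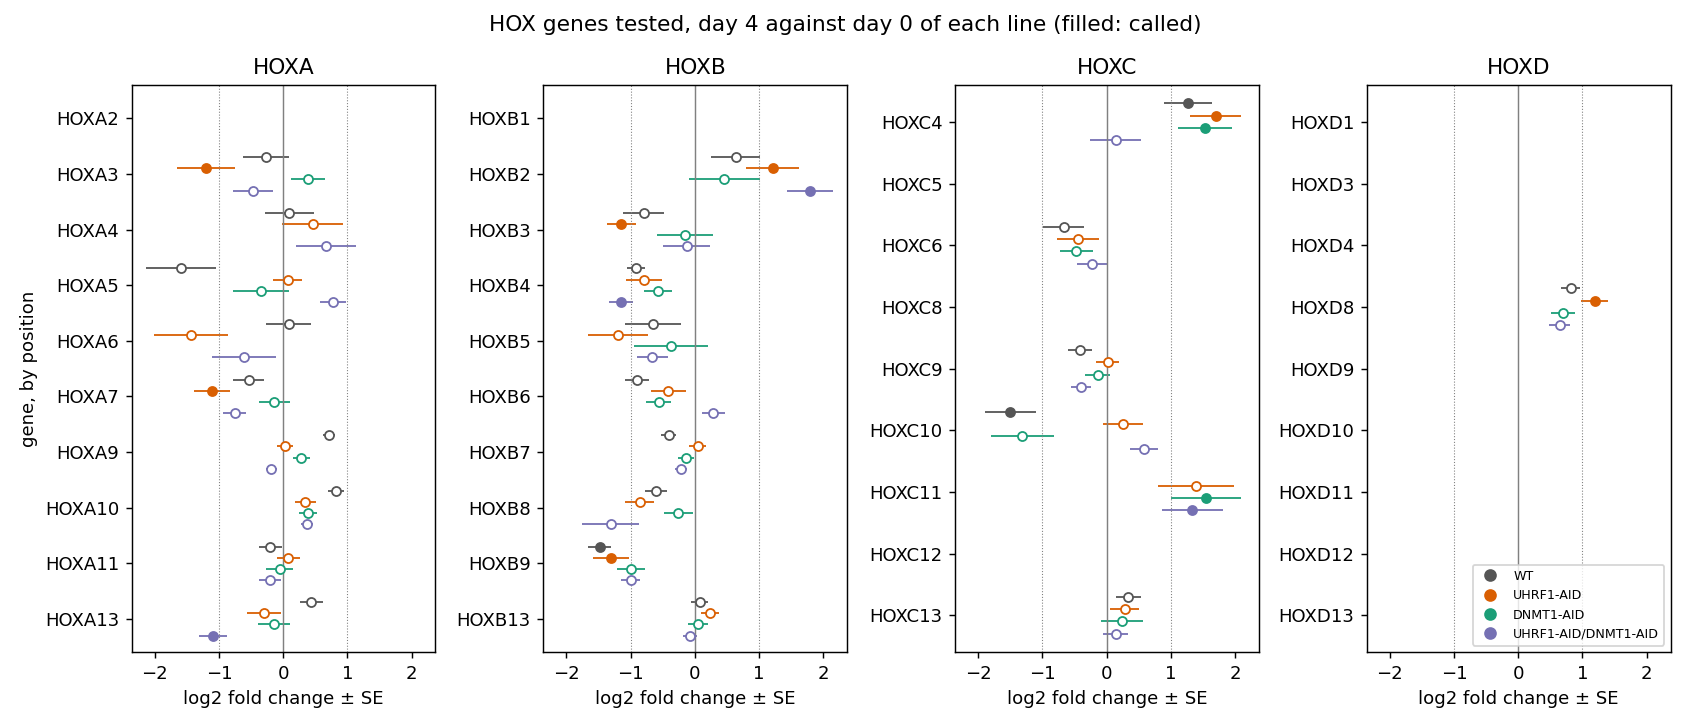
Log2 fold change ± SE (horizontal axis) of day 4 against day 0 within each of the 4 lines for the tested HOX genes plotted, by cluster and position. Filled points were called, dotted lines mark a log2 fold change of 1 up or down, and genes with a group at or under 3 counts have no point. HOXC4 is filled and right of the dotted lines in WT, UHRF1-AID and DNMT1-AID, and HOXB9 is filled and left of them in WT and UHRF1-AID.

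Whether a tagged line's day effect differed from that of WT was tested directly by an interaction term, an alternative chosen after seeing the data. It crosses the alignment folders in the same way for WT, DNMT1-AID and the double line, but not for UHRF1-AID. For the double line minus WT, 3 HOX genes were called higher and 1 lower of 28 tested, where 5.41% of 15016 tested genes were called and the medians were -0.05 and -0.02. HOXA13 was at -1.58 (SE 0.27, adjusted p 0.00162 by edgeR) and HOXC10 at 2.04 (SE 0.44, adjusted p 0.00583), both called with any 1 library left out. HOXC10 had gone from 1.85 to 0.665 CPM in WT and from 2.67 to 4.04 CPM in the double line, and HOXA13 from 6.14 to 2.89 CPM in the double line.

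HOXA5 was at 2.32 in that test (SE 0.60, adjusted p 0.0211 by edgeR), from a level of 4.85 CPM at day 0 and 1.61 at day 4 in WT and 4.51 and 7.77 in the double line. It was lost without WT day 0 replicate 2 (adjusted p 0.0513), double-line day 0 replicate 3 (0.0527), day 4 replicate 1 (0.0544) or day 4 replicate 2 (0.0549), and was 2.96 without WT day 4 replicate 2. HOXB6 was at 1.15 (SE 0.27, adjusted p 0.0111), from 12.2 to 6.63 CPM in WT and from 7.35 to 9.05 CPM in the double line, and 0.98 without WT day 4 replicate 2. Without the library labelled WT day 0 replicate 3 the values were 2.54 for HOXA5 (adjusted p 0.0100), -1.61 for HOXA13, 2.33 for HOXC10 and 1.21 for HOXB6. HOXD1, which did not pass the filter in the main fit, was called in 10 of 12 fits without 1 library, and HAGLR, which shares exon bases with it, was at 2.43 (SE 0.48, adjusted p 0.00389 by edgeR). At day 0 HAGLR had been lower in the double line than in WT (-2.10, adjusted p 0.0388 by edgeR). HOXA9 (-0.94, adjusted p 0.000196 by edgeR) and HOXA10 (-0.51, 0.0286) were under the size threshold, and HOXB2 (1.11, 0.172), HOXC4 (-1.18, 0.171) and HOXD9 (adjusted p 0.166) were not called.

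For UHRF1-AID minus WT, edgeR called no HOX gene of 26 tested, where 2.27% of 14846 tested genes were called and the medians were 0.13 and 0.02. At an unadjusted p under 0.05 there were 7 HOX genes and 2761 of all genes. HOXC10 was at 1.72 (SE 0.51, adjusted p 0.0872), HOXA5 at 1.63 (0.159) and HOXA13 at -0.78 (0.203). HOXA9 was at -0.73 (SE 0.15, adjusted p 0.0184 by edgeR), past the threshold on p but not on size. HOXC10 was called without the library labelled WT day 0 replicate 3. For DNMT1-AID minus WT edgeR called none of 26, where 0.139% of 14370 were called and the medians were 0.23 and -0.01. At an unadjusted p under 0.05 there were 2 HOX genes and 1829 of all genes. There HOXC10 was at 0.19 (adjusted p 0.917) and HOXA5 at 1.26 (0.489). Over all genes, 19 were called higher and 1 lower in that test, 86 and 24 without the library labelled WT day 0 replicate 3, 28 and 2 without that labelled DNMT1-AID day 0 replicate 3, and 2 and 0 without WT day 0 replicate 2, with no HOX gene called in any of these fits. DESeq2 was not run for the interactions. The day effects of HOXA5, HOXA13, HOXB6 and HOXC10 were thus called as different from those of WT in the double line, and no HOX gene was called in the lines with 1 tag. All these comparisons share WT libraries.

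Genes that act with or on the HOX genes were read at day 4 against WT as fixed lists, with values for UHRF1-AID first, DNMT1-AID next and the double line last, and with the medians of all tested genes at 0.03, 0.00 and 0.02. Of all tested genes 6.99%, 2.57% and 11.7% were called, the background for calls in each list below. At an unadjusted p under 0.05 by edgeR there were 4608 of 13958, 3280 of 13582 and 6669 of 14219 genes. These are the background for list counts at that threshold. Of 11 HOX cofactors, the PBX, MEIS and related partners that bind DNA with HOX proteins, 9 were tested in each and none was called by edgeR. At an unadjusted p under 0.05 there were 1, 1 and 4, DESeq2 called 0, 0 and 1, and the medians were 0.25, 0.06 and -0.13. Of 33 Polycomb genes 32, 32 and 33 were tested, none was called in UHRF1-AID or DNMT1-AID (12 and 6 at an unadjusted p under 0.05, 1 and 0 by DESeq2) and 1 rose in the double line, with medians of 0.01, 0.05 and -0.03. That gene was EZHIP, an inhibitor of the Polycomb methyltransferase, with no count in WT day 4, 10, 3 and 19 for UHRF1-AID, 3, 0 and 4 for DNMT1-AID and 53, 82 and 120 for the double line (adjusted p 1.13e-07 by edgeR). Of 19 Trithorax genes all were tested and none was called (5, 6 and 6 at an unadjusted p under 0.05, none by DESeq2), with medians of -0.23, 0.48 and 0.53. Other comparisons did call Trithorax genes. UHRF1-AID against DNMT1-AID at day 4, which crosses the alignment folders, had 6 lower and none higher (5.31% of all genes called, 6 by DESeq2), of which DOT1L, KMT2B and KMT2D were called with any 1 library left out. The day effects had 1 higher and 10 lower for UHRF1-AID (21.9%), 1 and 5 for the double line (26.6%), 0 and 3 for WT (11.9%) and 1 and 1 for DNMT1-AID (15.3%). For Polycomb genes the day effects had 0 higher and 3 lower for UHRF1-AID, 1 and 6 for the double line, 0 and 3 for WT and 1 and 0 for DNMT1-AID.

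Of 19 CDX and retinoic acid genes, which act upstream of HOX clusters in embryos, 11, 9 and 12 were tested. The edgeR test called 2 higher in UHRF1-AID, none in DNMT1-AID (2 at an unadjusted p under 0.05, 0 by DESeq2) and 4 higher with 1 lower in the double line, with medians of -0.07, 0.23 and 0.40. CDX2, the intestinal master regulator, had 324, 358 and 360 counts in WT day 4, 754, 853 and 887 in UHRF1-AID and 998, 778 and 797 in the double line. Both groups with tagged UHRF1 lay above WT, and the call was in the double line (1.32, SE 0.12, adjusted p 3.33e-08 by edgeR). CDX1, its relative, had no count in WT day 4 or at day 0, 18, 21 and 16 for UHRF1-AID, 3, 0 and 2 for DNMT1-AID and 26, 28 and 34 for the double line (adjusted p 0.0033 for UHRF1-AID and 1.53e-06 for the double line).

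RARG, a retinoic acid receptor, had 767, 897 and 1015 counts in WT day 4 and 402, 430 and 430 in the double line, and fell by 1.06 (SE 0.11, adjusted p 3.64e-07 by edgeR), -0.98 without WT day 4 replicate 3. CRABP1, a retinoic acid binding protein, had no count in WT day 4 and 12, 12 and 17 in the double line (adjusted p 7.93e-05 by edgeR). The other calls of that list were CYP26A1, which breaks retinoic acid down, in the double line (22, 25 and 18 counts against 9, 3 and 2; log2 fold change 2.20, and 3.10 without WT day 4 replicate 1) and ALDH1A1, which makes it, in UHRF1-AID (20, 32 and 12 counts against 0, 2 and 1).

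Of 16 related homeobox genes of the same class, 7 were tested in each. There were 3, 2 and 4 higher and none lower, with medians of 0.21, 0.69 and 1.10. DLX3, a gene of skin and placenta, had 0, 4 and 3 counts in WT day 4, 59, 51 and 94 for UHRF1-AID, 15, 22 and 14 for DNMT1-AID and 72, 100 and 84 for the double line. Its log2 fold changes were 4.46, 2.80 and 5.14, and the call in DNMT1-AID was lost without WT day 4 replicate 1 (adjusted p 0.0603) or replicate 2 (0.0649, log2 fold change 3.39). DLX2, a forebrain gene, was at 2.17, 2.24 and 3.65, and DLX1, its neighbour, at 2.09 in UHRF1-AID and 2.83 in the double line. GBX2, a hindbrain boundary gene, was at 1.10 in the double line, 0.86 without WT day 4 replicate 1, and also under the size threshold without double-line day 4 replicate 2.

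Of 29 listed neighbours of the clusters, 24, 24 and 25 were tested, with 1 higher, none (11 at an unadjusted p under 0.05, 0 by DESeq2) and 2 higher, none lower, and medians of -0.04, -0.09 and -0.07. Of 59 other genes inside the clusters, 10, 9 and 12 were tested, with 1 higher and 1 lower, none (2 at an unadjusted p under 0.05, 0 by DESeq2), and 2 higher and 1 lower, and medians of -0.31, -0.20 and 0.42. Both lists hold PRAC1 and PRAC2, small genes of prostate and distal colon beside HOXB13. PRAC1 had no count in WT day 4, 17, 13 and 16 for UHRF1-AID, 0, 5 and 0 for DNMT1-AID and 10, 19 and 16 for the double line (adjusted p 0.00389 for UHRF1-AID and 6.66e-05 for the double line by edgeR), and PRAC2 had 0, 0 and 2 for WT day 4 and 16, 17 and 19 for the double line (adjusted p 9.46e-05). HOXB13 beside them had 373, 416 and 343 counts in WT day 4 and 410, 330 and 347 in the double line, overlapping values. LINC02086, in HOXB, was at -1.28 in UHRF1-AID (SE 0.28, adjusted p 0.0124), lost without WT day 4 replicate 2 or UHRF1-AID day 4 replicate 3 (adjusted p 0.0508 to 0.0585). HOXA-AS2, antisense to HOXA3, was at -1.38 in the double line (SE 0.38, adjusted p 0.00644), where HOXA3 also fell, and without strand their reads cannot be told apart.

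Some genes of the marker lists were called at day 4. Of 8 colon epithelium markers, which also hold CDX1 and CDX2, 6, 5 and 6 were tested, with 1, 0 and 2 higher, none lower, and medians of 0.22, 0.23 and 0.25 (in DNMT1-AID 2 at an unadjusted p under 0.05, 0 by DESeq2). Of 5 fibroblast markers 2, 1 and 2 were tested, with 1, 0 and 2 higher (in DNMT1-AID 1 at an unadjusted p under 0.05, 1 by DESeq2). THY1, a surface protein of fibroblasts and neurons, had no count in WT day 4, 114, 100 and 88 for UHRF1-AID, 2, 0 and 7 for DNMT1-AID and 136, 130 and 101 for the double line (adjusted p 0.000134 and 3.15e-10 by edgeR). COL1A1 had 52, 82 and 142 counts in WT day 4 and 283, 239 and 324 in the double line (1.64, SE 0.30, adjusted p 0.00278). COL1A2, COL3A1 and DCN were near 0. Against WT, no leukocyte or endothelium marker passed the filter of the edgeR test. DESeq2, run without that filter, called 1 leukocyte marker for UHRF1-AID, PTPRC (15, 11 and 4 counts against 1, 0 and 0 in WT), and 1 endothelium marker for the double line, PECAM1 (7, 23 and 14 against 0, 2 and 5). The part of other cell types in the HOX values was not tested.

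The remaining HOX genes were not called in any of the 12 main comparisons. HOXA4 had 5 to 27 counts in a library, HOXA6 1 to 32, HOXA11 87 to 207, HOXB5 9 to 137, HOXC6 30 to 175, HOXC8 2 to 15, HOXC9 92 to 276 and HOXC13 48 to 123. HOXA9, HOXA10, HOXB6, HOXB7, HOXB8 and HOXB13 were abundant and are described with their clusters. HOXA2 had at most 7 counts in a library, HOXC5 had at most 10 counts in a library and HOXD3 at most 14, and none of these 3 passed the filter in a main fit. Without double-line day 4 replicate 3, HOXD3 was called higher in that line's day effect (3.26, SE 0.88, adjusted p 0.00344 by edgeR), from 1, 0 and 3 counts at day 0 and 10, 9 and 1 at day 4, where the days overlap with all libraries in.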

How the data were processed

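The counts are whole numbers of reads per Ensembl gene, deposited by the authors for 24 RNA-seq libraries. According to the submitters' notes the authors aligned with STAR to hg38 and counted with featureCounts, and the study's methods name Trimmomatic for trimming. The strand setting is not stated. ERCC spike-ins stayed out of library totals and tests. R 4.3.3 with edgeR 4.0.16 and limma 3.58.1 gave the main tests, from the 2 groups of each comparison, with filterByExpr on low counts, TMM scaling and quasi-likelihood tests. Calls needed an adjusted p below 0.05 with a log2 fold change beyond 1 in either direction. DESeq2 1.42.0, relative log expression scaling, a fit of all 24 libraries, no filter, the replicate number as a block and 108 fits without 1 library were the alternatives. The interaction tests were added after seeing the data. Python 3.11.15 with pandas 2.3.3, scipy 1.17.1 and matplotlib 3.10.9 made tables and figures. The fits were tested on simulated data.

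The main fits did not pair libraries by replicate number. Only for UHRF1-AID day 4 against day 0 did each same-numbered pair deviate together with a correlation over 0.1 (0.228, 0.143 and 0.122). The block given there is an alternative fit. Elsewhere at least 1 correlation was under 0.1, with a range of -0.622 to 0.235. Ratios for low genes carry exact 95% intervals, and bounds use a floor of 3 counts over the group. Replicates of a group spread beyond counting error (chi-square per degree of freedom 3.71 to 64.3 over 24 pairs), and p-values measure the spread between these libraries only.

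The genes named are every HOX gene called in at least 1 of 12 comparisons, the highest HOX gene of each cluster in CPM per kb, up to 4 called members of each other list by smallest p in UHRF1-AID or the double line (UHRF1-AID/DNMT1-AID) against WT at day 4, UHRF1 and DNMT1. Other HOX genes, HAGLR, DOT1L, KMT2B, KMT2D, CYP26A1, ALDH1A1 and GBX2 were named after their values were seen. So were PTPRC and PECAM1 for their calls by DESeq2. The members and the 11 lists were chosen with earlier results of these data known. The values of 1 HOX gene are not reported here and not plotted, while counts, medians and sums over HOX genes include it.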

Additional observations from a re-analysis of the deposited data

Results flagged for a closer look

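The test of the difference between the day effect of the double line (UHRF1-AID/DNMT1-AID) and that of WT called 4 HOX genes. The log2 differences were 2.32 for HOXA5, -1.58 for HOXA13, 2.04 for HOXC10 and 1.15 for HOXB6. HOXA5, HOXC10 and HOXB6 had lower mean levels at day 4 than at day 0 in WT and higher ones in the double line. HOXA13 was lower at day 4 in the double line and higher on average in WT.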

How the results depend on the processing

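Counts of called HOX genes were compared between settings, with the share of all genes called in brackets. UHRF1-AID against WT at day 4 had 2 (6.99%). There no filter gave 5 (6.44%), DESeq2 4 (4.98%) and fits without 1 library 1 to 2 (5.52% to 8.44%). In the double line (UHRF1-AID/DNMT1-AID) against WT at day 4 the count was 6, and 11 with no filter (9.74%). UHRF1-AID against DNMT1-AID at day 4 had 2 (5.31%), and 0 to 2 without 1 library (2.75% to 6.44%). With no filter HOXD10 was called there (4.17% of all genes called). The double line against WT at day 0 had 1 (1.31%), and 0 to 2 without 1 library (0.212% to 2.53%). The WT day effect had 4 (11.9%), and 2 to 5 without 1 library (9.45% to 15.3%). The UHRF1-AID day effect had 8, and 15 with no filter (15.5%). The DNMT1-AID day effect had 3 (15.3%), and 1 to 4 without 1 library (13.3% to 18.7%). The double line's day effect had 6 (26.6%), 13 with no filter (18.8%), 11 by DESeq2 (16.7%) and 6 to 10 without 1 library (25.9% to 27.4%). The UHRF1-AID interaction had 0 (2.27%), and 0 to 1 without 1 library (1% to 2.9%). Over all genes, shifts of over 1.5 times in higher and lower calls included those in UHRF1-AID against WT at day 4 from 805 and 170 to 1375 and 257 with no filter, in the double line against WT at day 4 from 1309 and 354 to 2139 and 396 with no filter, and in DNMT1-AID against WT at day 4 from 311 and 38 to 769 and 53 without WT day 4 replicate 3. UHRF1-AID against DNMT1-AID at day 4 had 406 and 342, and 242 and 158 without DNMT1-AID day 4 replicate 2. The double line against WT at day 0 had 92 and 92, 151 and 215 without the library labelled WT day 0 replicate 3, and 12 and 18 without double-line day 0 replicate 3. The UHRF1-AID interaction had 268 and 69, and 126 and 27 without WT day 0 replicate 1, and that of DNMT1-AID 19 and 1, and 86 and 24 without the library labelled WT day 0 replicate 3. No filter lets more low genes be tested. The cause of the other shifts was not tested.

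The labels give same-numbered libraries only a number in common and name no clone, so whether they are paired cannot be told. Same-numbered libraries of the double line at day 4 and day 0 had correlations of 0.0789, 0.0911 and 0.0915, just under the cut of 0.1. With the replicate block, the HOX count of UHRF1-AID against DNMT1-AID at day 4 was 1 (3.97% of all genes called). No other HOX count moved by over 1.5 times. Over all genes, the block took the double line against WT at day 0 from 92 higher and 92 lower to 56 and 74, and DNMT1-AID against WT at day 0 from 0 and 1 to 0 and 0. For named HOX genes, none of the alternatives reversed a direction. Relative log expression scaling ended no call, DESeq2 ended 4 of 38, the fit over all libraries 2, no filter 1 and the block 3. In fits without 1 library, 220 gene values were still called and 56 were not. The low HOXD genes and HOXC12 had few counts, and most of them did not pass the filter. The part of depth in this was not tested.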
